A study of Mus musculus with 3 samples.

Results

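The nuclear-encoded subunits of the mitochondrial respiratory chain and ATP synthase were examined in immortalized lymphatic endothelial cells of mouse skin. Members were chosen by the gene symbol given in the platform annotation: symbols beginning with Ndufa, Ndufb, Ndufc, Ndufs, Ndufv, Sdha to Sdhd, Uqcr, Cox4 to Cox8 or Atp5, from probe sets that name a single gene. The rule gave 94 of the 18194 genes on the array, read by 185 of 34958 single-gene probe sets. By role, 34 were subunits of complex I, 4 of complex II, 8 of complex III, 19 of complex IV and 17 of complex V, with Ndufa4 and Ndufa4l2 counted in complex IV. The other 12 (Ndufaf and Sdhaf genes) carry symbols that begin the same way but encode assembly factors, which help build complexes I and II without being part of them. A further 8 symbols of these families, among them Ndufa11 and Ndufs6, were present only in probe sets shared by several genes and have no value here, and Cox7b was not among the single-gene probe sets.

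The series has 3 arrays, 1 culture each at passages 13, 14 and 18, all in a single group. All cells came from H-2Kb-tsA58 mice (ImmortoMice), whose transgene drives a temperature-sensitive T antigen from the interferon-responsive H-2Kb promoter, and were sorted as skin lymphatic endothelial cells. Every culture was expanded at 33 °C with interferon-gamma and then kept for 3 days at 37 °C without it, conditions under which the T antigen is degraded. No primary cells and no other treatment are in the series, and the labels give neither age nor sex of the mice. With 1 culture per passage, a difference between passages has no replicate check, and the SD over 3 arrays mixes passage with culture.

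The respiratory chain passes electrons from NADH (complex I) and succinate (complex II) through ubiquinone to complex III, cytochrome c and complex IV, which reduces oxygen. Complexes I, III and IV pump protons, and complex V, the ATP synthase, uses the gradient to make ATP. Mitochondrial DNA encodes a few core subunits of every complex except complex II, and nuclear genes encode all others. Complex IV is the one in which many nuclear subunits have a second form restricted to muscle, testis, lung or hypoxic cells. Endothelial cells are known for drawing much of their ATP from glycolysis, with mitochondria used also for signalling and biosynthesis.

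Values are deposited intensities on a linear scale, and each gene is represented by its brightest probe set. A gene was called detected when it lay above a floor on all 3 arrays. The floor was set from 42 measured genes that belong to other tissues, at their 95th percentile, and stood at 48.8, 50.9 and 51.5 intensity units at passages 13, 14 and 18. Intensities of different probe sets are not on one scale, so differences were taken between arrays for the same probe set. A probe set called the brightest has the highest intensity of its group, which gives no order of transcript levels.

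Of the 94 members, 83 (88.3%) were detected, against 49.3% of all 18194 genes. In complexes II, III and V every gene of the symbol rule that was measured was detected, 4 of 4, 8 of 8 and 17 of 17. In complex I, 32 of 34 genes were detected, and among assembly factors 11 of 12. Complex IV stood at 11 of 19, and 7 of its 8 genes without detection were below the floor on every array. In bulk RNA such as this, fewer cells of a type and less RNA per cell cannot be told apart.

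The complex I genes without detection were Ndufb1 and Ndufb4, both small accessory subunits of the membrane arm. Ndufb1 stood at 61.4, 57.7 and 51.4 at passages 13, 14 and 18, so it passed the floor on 2 arrays and missed it narrowly at passage 18. Ndufb4 stood at 8.01, 6.86 and 6.31, and its single-gene probe set is not the only one for this gene: others are shared with related genes and were not used. The assembly factor Ndufaf6 stood at 55.4, 110.4 and 49.4 and passed on 2 arrays. Cox7c, a broadly expressed small subunit of complex IV, stood at 24.2, 63.2 and 26.3 and passed at passage 14 only.

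**Figure D1:**
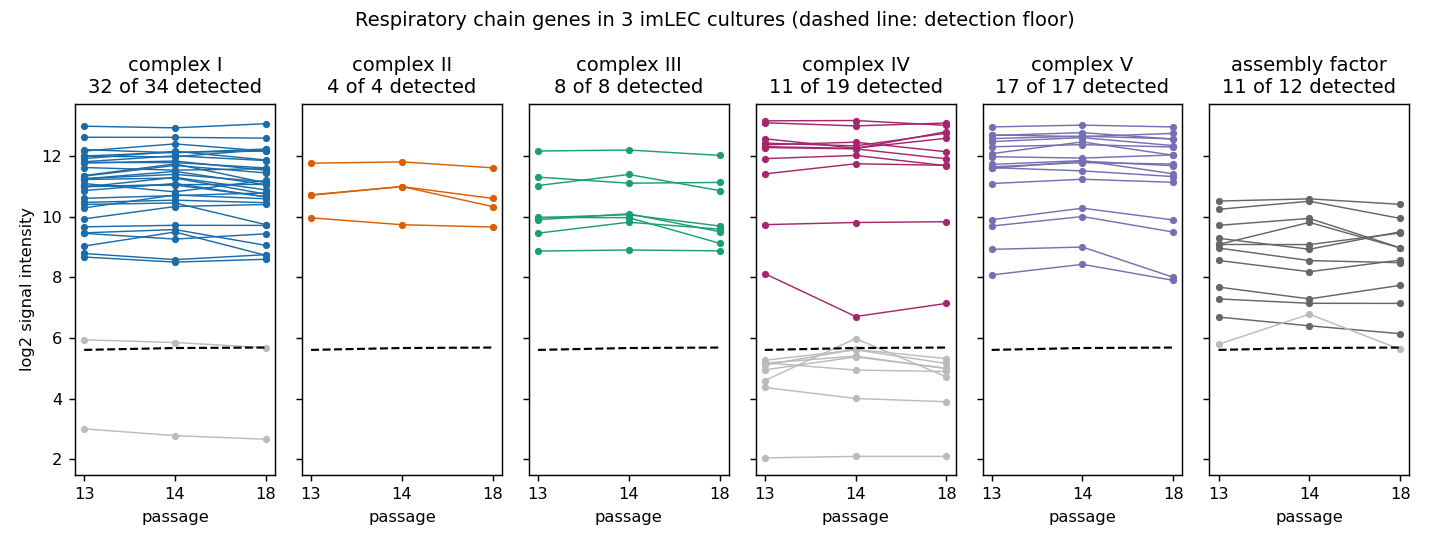
Log2 intensity of the members on each of the 3 arrays (passages 13, 14 and 18), by complex, with each gene represented by its brightest probe set and the detection floor marked. Complex IV splits into 11 genes above the floor and 8 that are not above it on all arrays, while complexes II, III and V have no gene below it.

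The undetected genes of complex IV were, apart from Cox7c, all tissue-restricted or alternative forms. Complex IV has pairs of nuclear subunits in which a broadly expressed form is replaced by another in certain tissues. Cox4i2, the form enriched in lung and induced by low oxygen, stood at 36.3, 30.7 and 29.8 at passages 13, 14 and 18, below the floor each time. Its common partner Cox4i1 was detected at 2736, 3452 and 3331. Cox6a2, the form of heart and skeletal muscle, stood at 36.0, 42.3 and 31.8, whereas Cox6a1 was detected at 5529, 5197 and 6950. Cox7a1, also a striated muscle form, stood at 20.7, 16.04 and 14.9, and Cox7a2 was detected at 5320, 5654 and 4540.

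Cox8b, which accompanies these muscle forms in rodents, stood at 30.9, 41.5 and 32.0. Cox8c, a testis form, stood at 34.5, 49.4 and 39.9, the closest of the group to the floor, which it missed by little at passage 14. The common Cox8a was detected at 857, 900 and 916. These 3 values for Cox8a span a narrow range, and both alternative forms stayed below the floor on all 3 arrays. Cox7b2, another testis form, stood at 4.12, 4.27 and 4.27. Ndufa4l2, the hypoxia-induced relative of Ndufa4, stood at 38.4, 48.8 and 35.7, while Ndufa4 itself was detected at 5105, 4903 and 7196.

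The calls of 5 of these forms depend on where the floor is set. With the floor at the 90th percentile of the other-tissue genes (28.4, 30.4 and 27.7 intensity units), Cox4i2, Cox6a2, Cox8b, Cox8c and Ndufa4l2 passed on all arrays, and Cox7a1 and Cox7b2 did not. None of the 11 striated muscle markers measured was detected, Ckm, Mb and Actn2 among them, and their summed intensity was 234, 240 and 230. None of the 5 brown fat markers was detected, Ucp1 included. Of 8 sperm and testis markers, 7 are themselves among the genes that set the floor, so their position against it says nothing. Of these 7, 1 was detected, Prm1, at log2 6.16, 6.14 and 6.10 at passages 13, 14 and 18. The marker that did not set the floor, Ldhc, was not detected.

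Cox6b2 was the exception among the restricted forms. It encodes the testis form of subunit 6B, which sits on the outer face of complex IV, and it was detected at 279, 104.7 and 141 at passages 13, 14 and 18. All 3 values lay above the floor, by a wide margin at passage 13. The intensity at passage 13 was 2.67-fold that at passage 14 and 1.98-fold that at passage 18, the widest range of any detected member (log2 mean 7.33 ± 0.73, SD, n = 3). By the brightest probe sets, Cox6b2 is also the single detected member that differed by 2-fold or more between any 2 passages. With the floor at the highest other-tissue gene (173, 271 and 129.9 intensity units) it was no longer detected. Cox6b1, the common form, stood at 5003, 4852 and 3862, a narrower range with the lowest value at passage 18.

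**Figure D2:**
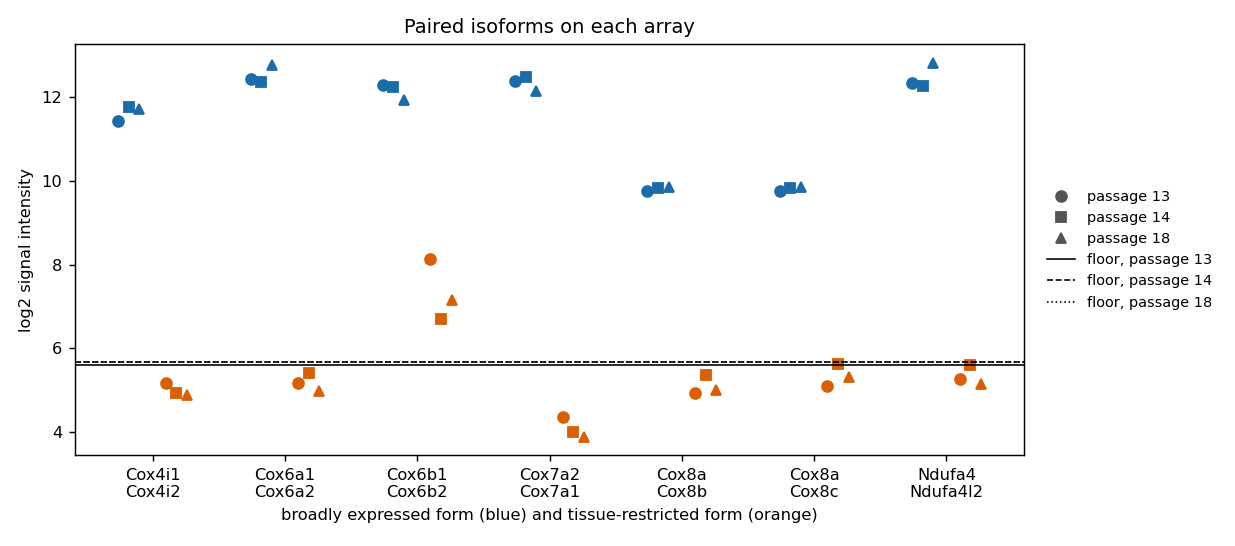
Log2 intensity of the restricted or alternative forms of complex IV subunits and of their broadly expressed partners at passages 13, 14 and 18, with the detection floor of each array as a line. Cox6b2 (279, 104.7 and 141 on the linear scale) is the only restricted form above the floor, and every partner plotted is above it.

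The pairs with a promoter entry for both forms also differ in the DNA in front of their start sites. Cox4i2, Cox6a2, Cox8c and Ndufa4l2 had no entry. The bases just upstream are shown for 3 pairs, each a detected common form followed by its restricted counterpart, because CpG-rich promoters are typical of broadly expressed genes. The sequences are from RefSeq (GRCm38.p6), 100 bases up to the start site, 5′ to 3′ on the gene's strand, with each CG dinucleotide in capitals.
Cox6b1 (chr7:30626115-30626214, minus strand): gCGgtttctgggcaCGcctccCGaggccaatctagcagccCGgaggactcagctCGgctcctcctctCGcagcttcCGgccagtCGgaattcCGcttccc
Cox6b2 (chr7:4753095-4753194, minus strand): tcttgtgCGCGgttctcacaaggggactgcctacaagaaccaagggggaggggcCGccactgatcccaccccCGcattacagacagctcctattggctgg
Cox7a2 (chr9:79759854-79759953, minus strand): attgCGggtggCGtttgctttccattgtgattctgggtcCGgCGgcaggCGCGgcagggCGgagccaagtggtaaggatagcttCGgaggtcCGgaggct
Cox7a1 (chr7:30184071-30184170, plus strand): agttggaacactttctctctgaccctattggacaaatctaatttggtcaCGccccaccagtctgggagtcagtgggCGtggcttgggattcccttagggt
Cox8a (chr19:7217617-7217716, minus strand): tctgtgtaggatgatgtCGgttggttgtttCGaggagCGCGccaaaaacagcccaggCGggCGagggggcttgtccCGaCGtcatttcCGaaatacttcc
Cox8b (chr7:140900447-140900546, minus strand): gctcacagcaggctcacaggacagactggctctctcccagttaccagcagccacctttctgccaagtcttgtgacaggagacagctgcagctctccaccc
In the whole promoter window of 300 bases (250 before and 50 after the start), Cox6b1 held 17 CG and Cox6b2 held 10. Cox7a2 held 20 and Cox7a1 held 7, and Cox8a held 19 against 2 in Cox8b. The median was 20 over 83 promoters of 78 members with an entry in the table, 13 over promoters of protein-coding genes and 7 over all 32851 promoters. Cox6b2, the restricted form that was detected, had a CG count below its partner's, as did the undetected Cox7a1 and Cox8b. A low count was not particular to restricted forms, since the detected complex I genes Ndufc2 and Ndufa3 held 8 and 11.

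The c ring of ATP synthase gives a different picture, since all 3 of its genes were detected. Atp5g1, Atp5g2 and Atp5g3 encode the same mature c subunit behind different import sequences. Atp5g3 stood at 3217, 3542 and 3431 at passages 13, 14 and 18, and its SD of 0.07 log2 was small. Atp5g1 stood at 487, 513 and 257, so that its value at passage 18 was 1.89-fold lower than at passage 13 and 1.997-fold lower than at passage 14. Atp5g2 stood at 271, 346 and 239, also lowest at passage 18.

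In complex I, most detected subunits kept close values over the 3 cultures, with a median SD of 0.14 log2. Ndufc1, a subunit of the membrane arm, had the smallest spread of all members, at 6331, 6317 and 6202. Ndufb7, an accessory subunit facing the intermembrane space and the brightest probe set of the complex, stood at 8153, 7853 and 8635. The widest ranges belonged to Ndufa8 and Ndufs1. Ndufa8, another intermembrane-space subunit, stood at 1361, 1408 and 856, with passages 13 and 14 close together and passage 18 lower by 1.59-fold and 1.64-fold. Ndufs1, the largest iron-sulfur subunit of the NADH-oxidising arm, stood at 525, 724 and 425, highest at passage 14.

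The core subunits of complex I that carry flavin or iron-sulfur clusters did not share one order of passages. Ndufv1, which holds the flavin and binds NADH, stood at 978, 1297 and 1359 at passages 13, 14 and 18, lowest at passage 13, and its partner Ndufv2 at 2070, 2120 and 1627, lowest at passage 18. Ndufs7 and Ndufs8, next to the ubiquinone site, stood at 1258, 1689 and 1549 and at 1565, 1666 and 1773, both lowest at passage 13, though 1 of the dimmer probe sets of Ndufs8 was lowest at passage 18 (383, 445 and 361). Ndufs3, a core subunit of the arm between these ends, stood at 710, 766 and 534, lowest at passage 18 like Ndufs1. Among accessory subunits, Ndufa10 stood at 2635, 3438 and 2232, its passage 14 value being 1.54-fold that of passage 18. Ndufa2, Ndufa6, Ndufb3, Ndufb8 and Ndufb10 each had an SD under 0.07 log2 by the brightest probe set. A much dimmer probe set of Ndufb8, also above the floor, was less even at 113.8, 90.4 and 177.3. It read 0.97 log2 higher at passage 18 than at passage 14.

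Complex II has only 4 subunits and all come from the nucleus. Sdha, the flavoprotein that oxidises succinate, stood at 3496, 3604 and 3145 at passages 13, 14 and 18. Sdhb, the iron-sulfur subunit, stood at 1001, 856 and 812, and was the one subunit highest at passage 13. The membrane anchors Sdhc (1697, 2049 and 1296) and Sdhd (1681, 2047 and 1562) were highest at passage 14 by their brightest probe sets. Their other probe sets put passage 13 slightly above passage 14, at 1457, 1450 and 1183 for Sdhc and 1345, 1314 and 826 for Sdhd. All 4 subunits were lowest at passage 18, and so were these other probe sets and that of Sdha (1164, 1449 and 902). Which gene passed 1.5-fold between passages 14 and 18 depended on the probe set. By the brightest it was Sdhc (1.58-fold), whose other probe set gave -0.29 log2, while the other probe sets of Sdha and Sdhd gave -0.68 and -0.67.

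In complex III, the widest ranges were those of Uqcrq and Uqcrc1. Uqcrq, a small subunit next to cytochrome b, stood at 1010, 1006 and 560, so that passages 13 and 14 nearly coincided and passage 18 was 1.80-fold lower than either. The core protein Uqcrc1 stood at 959, 1099 and 730. Uqcrb, the brightest of the complex, stood at 4618, 4729 and 4179, and the Rieske iron-sulfur protein Uqcrfs1 at 705, 906 and 773. Of the 8 genes, 7 were lower at passage 18 than at passage 14, and Uqcrh was slightly higher.

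Complex IV behaved less uniformly. Cox5b, its brightest member and a zinc-binding subunit, stood at 9222, 9284 and 8312 at passages 13, 14 and 18. Ndufa4 stood 1.41-fold higher at passage 18 than at passage 13 and 1.47-fold higher than at passage 14, and Cox6a1 was highest at passage 18 as well. Cox5a, Cox5b, Cox6b1 and Cox7a2 were lowest there by their brightest probe sets. Of the other Cox5a probe sets, 1 was lowest at passage 13 (2107, 2261 and 2202) and 1 at passage 18 (1467, 1527 and 1423). Among complex V subunits of the catalytic head, Atp5a1 stood at 8024, 8358 and 8014 by its brightest probe set and Atp5b at 6591, 7033 and 6070. The other probe sets of Atp5a1 above the floor read 7596, 7863 and 7897, which is as even, and 2342, 3314 and 1834, a difference of -0.85 log2 from passage 14 to 18. The rotor subunit Atp5c1 stood at 5734, 6278 and 5228. In the peripheral stalk, which holds the head in place, Atp5pb stood at 3105, 3664 and 3298, Atp5h at 6687, 6422 and 6915, and Atp5o at 2196, 2421 and 2258. These stalk genes had SDs of 0.12, 0.05 and 0.07 log2 (n = 3) and did not share one order of passages. A second probe set differed from these for Atp5h (2206, 2179 and 1790) and Atp5o (1861, 2170 and 1512), both lowest at passage 18. The second probe set of Atp5pb read 1815, 2083 and 2171, highest at passage 18. The membrane subunits Atp5k (6143, 6492 and 6097) and Atp5l (831, 1031 and 723) were both highest at passage 14 and lowest at passage 18 by their brightest probe sets. For Atp5k the distance was small, with an SD of 0.05 against 0.26 for Atp5l.

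Among the assembly factors, Ndufaf4 and Ndufaf5, both required to build complex I, had the widest ranges of those detected. Ndufaf4 stood at 544, 902 and 502, and was the single detected member higher by 1.5-fold or more at passage 14 than at passage 13 (1.66-fold). Ndufaf5 stood at 843, 989 and 505, so that passage 18 was 1.67-fold lower than passage 13 and 1.96-fold lower than passage 14. Both were thus lowest at passage 18 and highest at passage 14. Sdhaf2, which helps attach flavin to Sdha, was highest at passage 18 (545, 543 and 708).

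**Figure D3:**
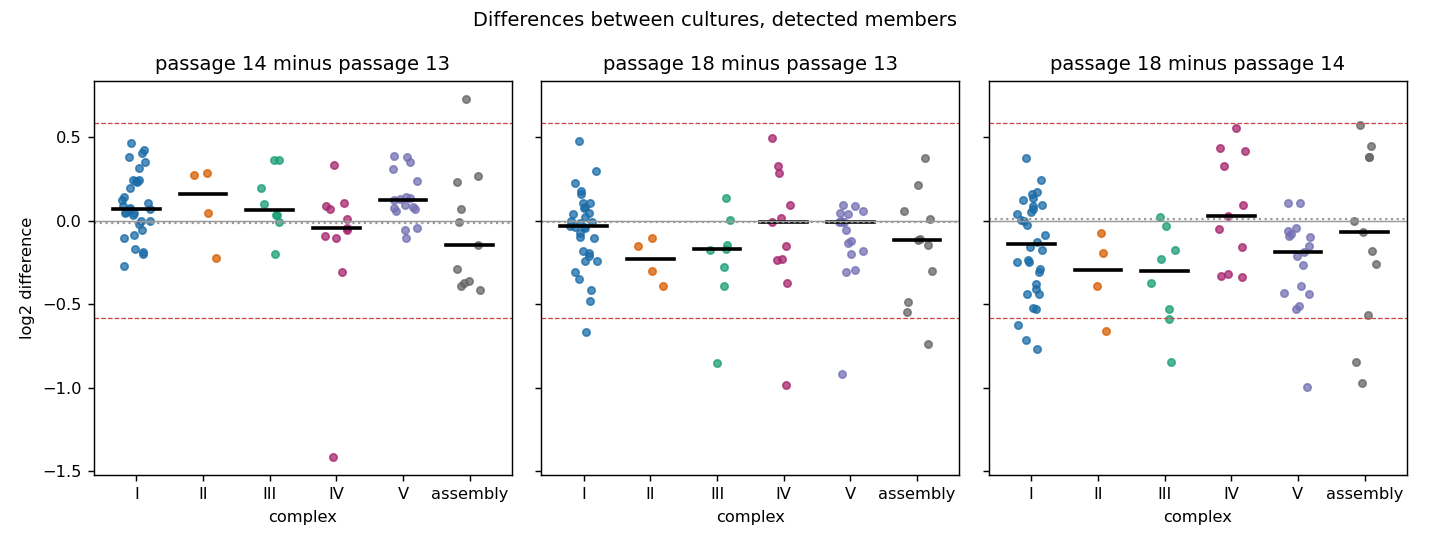
Log2 differences between passages of the detected members, by complex, with 1 point per gene, for passage 14 minus 13, 18 minus 13 and 18 minus 14; black bars are medians, the dotted line is the median of all detected genes and dashed lines mark 1.5-fold. For passage 18 minus 14, 4 of 4 points of complex II, 7 of 8 of complex III and 15 of 17 of complex V lie below 0, and 5 of 11 of complex IV.

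Across the 83 detected members, passage 14 was the highest of the arrays for 49 (59.0%), against 36.3% of all 8970 detected genes. Passage 18 was the lowest for 48 (57.8%), against 38% of all detected genes, and passage 14 for 20 (24.1%), against 38.9%. Between passages 13 and 14, 54 members were higher at passage 14 and 29 lower, where 48.3% and 51.2% of all detected genes were. The median difference was 0.07 log2, against -0.01 over all detected genes. Differences were small: 1 member was higher by 1.5-fold or more (Ndufaf4, against a background of 6.72%) and 1 lower (Cox6b2, background 9.55%). At 2-fold or more, 0 members were higher (background 1.92%) and Cox6b2 was lower (background 2.95%).

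At passage 18, 55 members were lower than at passage 13 and 28 higher, where 51.1% and 48.4% of all detected genes were. The median difference was -0.07 log2, against -0.01 over all detected genes. Ndufa8, Uqcrq, Cox6b2, Atp5g1 and Ndufaf5 were lower by 1.5-fold or more, 5 of 83 against a background of 7.48%, a share near it. No member was higher by 1.5-fold or more, where 7.28% of all detected genes were. None passed 2-fold in either direction, where 2.13% of all detected genes were higher and 1.98% lower.

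The distance between passages 14 and 18 was the widest. At passage 18, 58 members were lower and 25 higher than at passage 14, where 48.7% and 51% of all detected genes were, and the median was -0.16 log2 against 0.01. Lower by 1.5-fold or more were 9 members (10.8%, background 13.5%): Ndufa8, Ndufa10, Ndufs1, Sdhc, Uqcrc1, Uqcrq, Atp5g1, Ndufaf4 and Ndufaf5. Again 0 of 83 were higher by 1.5-fold or more, against 15.7% of all detected genes. At 2-fold or more there were 0 higher and 0 lower, against 6.35% and 5.14%. By their brightest probe sets, the members were thus shifted by small amounts, mostly one way. Dimmer probe sets above the floor went further for some genes, with Ndufc2 at -1.011 and -1.015 log2 and Ndufb8 at 0.97. The 3 comparisons share arrays, so they are not independent of each other.

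By complex, the median difference of passage 18 minus 14 was -0.14 log2 in complex I, -0.29 in complex II, -0.30 in complex III and -0.19 in complex V, and 0.03 in complex IV. The genes lower at passage 18 numbered 20 of 32, 4 of 4, 7 of 8 and 15 of 17 in the first set, and 5 of 11 in complex IV. For passage 14 minus 13 the medians were 0.07 in complexes I and III, 0.16 in complex II and 0.13 in complex V, against -0.04 in complex IV and -0.14 in the assembly factors. For passage 18 minus 13 they were -0.03, -0.23, -0.17, -0.01 and -0.01 in complexes I to V. The contrast of complex IV with the others was not stable. In a setting without probe sets whose names end in _x_at, _s_at or _a_at, its medians turned to 0.12 (passage 14 minus 13) and -0.33 (18 minus 14). The floor was set anew in that setting, so dim forms below the main floor can count as detected there. The turn can thus come from the genes counted as well as from the probe sets removed, and the part of each was not tested. Complex II has 4 genes and complex III has 8, and no difference between complexes was tested.

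A linear term for passage number was tested with limma over all 9566 genes above the mean floor. No member of 85 tested was called after Benjamini-Hochberg adjustment, and neither was any gene (0%). At an unadjusted p under 0.05 there were 3 members, against 335 genes (3.5%). They were Uqcrq (slope -0.18 log2 per passage, SE 0.058), Atp5g1 (slope -0.20, SE 0.066) and Ndufa4 (slope 0.11, SE 0.037), with a limma adjusted p of 0.891 each. Such a fit has 1 residual degree of freedom. Slopes were negative for 58 members and positive for 27, where 50.9% and 49.1% of all genes tested were. Without probe sets whose names end in _x_at, _s_at or _a_at they were negative for 52 and positive for 16. Uqcrq and Atp5g1 are each read above the floor only by a probe set with such an ending (_s_at and _a_at), so their slopes rest on it.

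**Figure D4:**
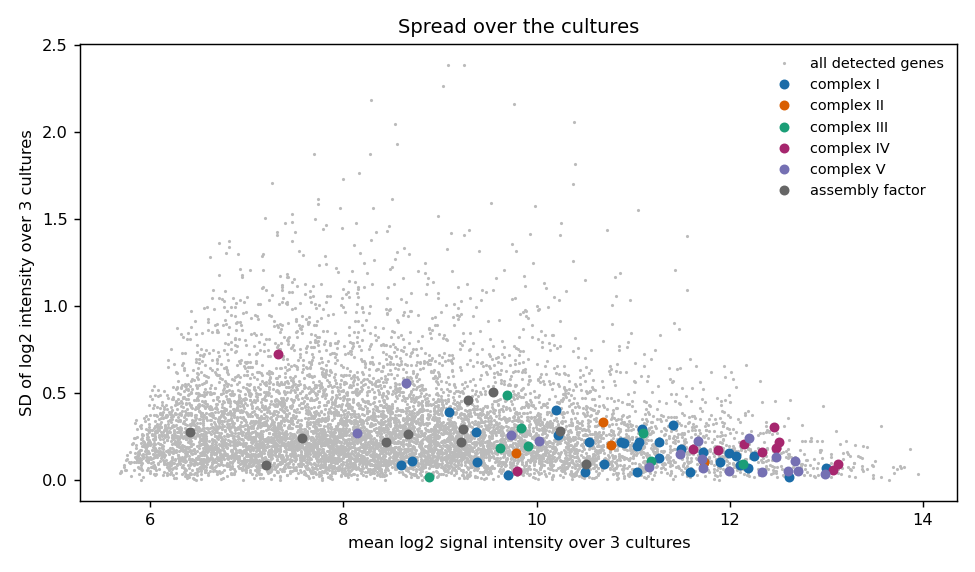
SD of log2 intensity over the 3 arrays against mean log2 intensity for the detected members, with all detected genes as background. The members' median SD is 0.17 and that of all detected genes 0.24, and Cox6b2 stands apart at 0.73.

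The members varied less over the 3 cultures than detected genes in general, with a median SD of 0.17 log2 against 0.24. Their probe sets are bright, and bright probe sets vary less, so the same was computed among bright genes, without matching them further. At a mean log2 intensity of 10 or more, 57 members had a median SD of 0.14 and all 1805 such genes 0.19. The members remained brighter within that range, with a median mean log2 intensity of 11.72 against 10.86, so the part of brightness was not separated. Median SDs were 0.14 in complex I, 0.18 in complex II, 0.19 in complex III, 0.18 in complex IV, 0.12 in complex V and 0.26 in the assembly factors. The median was thus lowest in complex V and highest in the assembly factors, and no difference between them was tested. The medians rest on single arrays: over all members it was 0.0982 without passage 18 and 0.106 without passage 14, and in complex IV 0.0632 without passage 18.

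Several values of the arrays moved with these differences. The 3′/5′ intensity ratio of the Gapdh control probe sets, a measure of how evenly a transcript was copied, was 8.59, 7.10 and 19.4 at passages 13, 14 and 18, and that of Actb was 1.18, 1.204 and 1.42. Of 16 cell-cycle genes measured, 14 were detected and all 14 were higher at passage 14 than at passage 13 (summed intensity 16113, 23069 and 14391). Of 10 lymphatic endothelial markers 7 were detected, Lyve1 and Flt4 among them, with a sum of 12014, 10403 and 8068, while Prox1 was above the floor on 1 array only. Such sums are carried by bright probe sets: Lyve1 was 8.44-fold and 18.0-fold lower at passage 18 than at passages 13 and 14 and Sox18 was 5.27-fold lower than at 14, whereas Foxc2 was 3.58-fold higher than at 14. All 10 markers of endothelium in general were detected, with a sum of 19278, 18454 and 13054. Of them, 7 were higher and 3 lower at passage 14 than at 13, though the sum was lower. At passage 18 all 10 were lower than at passage 13 and than at passage 14. Fibroblast markers (5 of 9 detected) summed to 3880, 2475 and 5553 and mural markers (3 of 8) to 6195, 1095 and 7375, with Pdgfra, Lum, Myh11 and Rgs5 below the floor throughout. Within these lists genes went opposite ways from passage 13 to 18, with Col1a1 4.67-fold and Acta2 3.61-fold higher and Tagln 2.58-fold and Fbln1 1.86-fold lower. Leukocyte markers (2 of 7 detected, Ptprc below the floor) summed to 537, 500 and 243, and keratinocyte markers (1 of 6) to 242, 183 and 233. The part of RNA quality, growth or cell makeup in the members' differences was not tested. The housekeeping genes (8 of 8 detected) had median differences of -0.04, -0.03 and 0.03 log2 for passages 14 minus 13, 18 minus 13 and 18 minus 14.

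Probe sets of one gene offer a look within each array, since they read different stretches of the transcript. Of the members, 44 had at least 2 probe sets above the floor (107 in all). All probe sets of a gene pointed the same way for 38 of the 44 between passages 13 and 14 (86.4%, against 71.4% of 4127 such genes), in 26 cases higher at passage 14 and in 12 lower, where all genes split into 1482 and 1464. Between passages 13 and 18 this held for 25 (56.8%, against 63.3%), and between 14 and 18 for 30 (68.2%, against 68.2%), 24 of them lower at passage 18 and 6 higher, where all genes split into 1430 and 1383.

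Disagreement was sizeable for some members, beside Ndufb8 and those of complexes II and V given above. Ndufc2, a membrane-arm subunit of complex I, was read as 3510, 3675 and 2975 by its brightest probe set, a difference of -0.24 log2 from passage 13 to 18. Its other probe sets above the floor read 1365, 1470 and 730 (-0.90) and 1801, 2130 and 1054 (-0.77). All 3 placed passage 18 lowest, but by different amounts. For Cox6a1 the direction itself differed: the brightest probe set read 0.33 log2 higher at passage 18 than at passage 13, and the other, at 2049, 1984 and 1550, read -0.40. Sdhd gave -0.11 by the brightest and -0.70 by the other (1345, 1314 and 826).

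**Figure D5:**
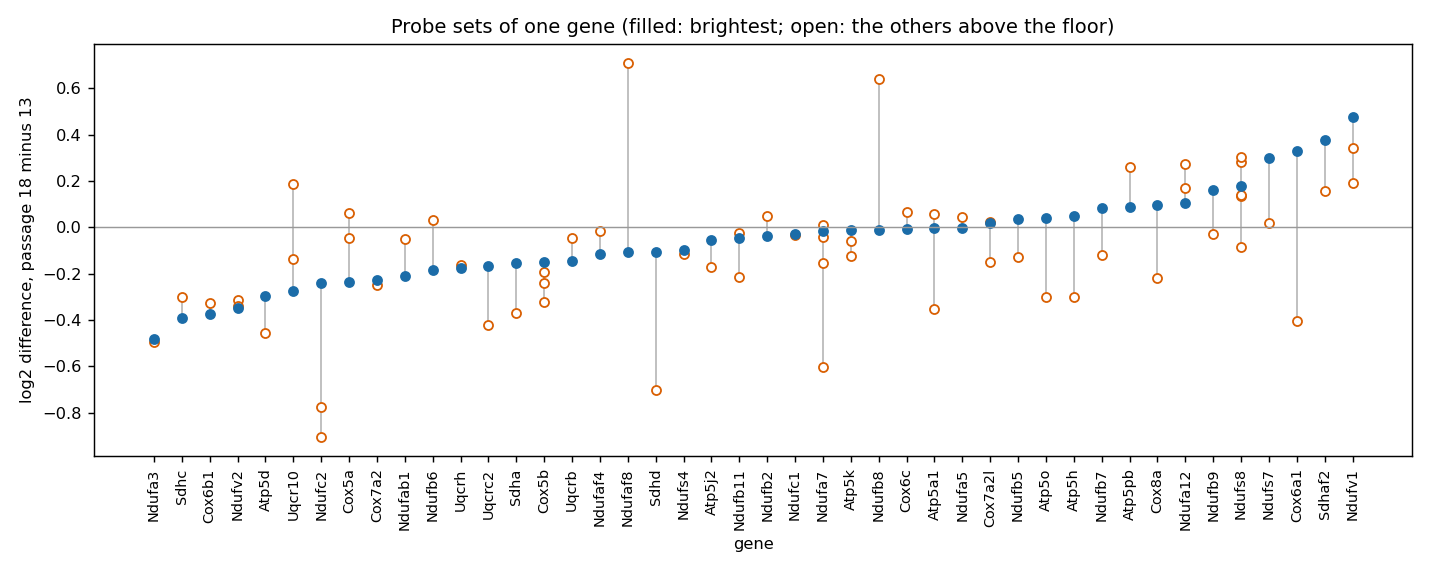
Log2 difference of passage 18 minus 13 for the probe sets of members with at least 2 above the floor, 1 line per gene (filled points are the brightest probe set, open points the others). The median over the dimmest probe set of each gene is -0.12 and over the brightest -0.04, and the probe sets of Cox6a1 lie on opposite sides of 0.

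The genes around the chain were looked at through lists of related function. Of 8 measured subunits and carriers outside the symbol rule, 7 were detected, and cytochrome c1 (Cyc1, the heme subunit of complex III) stood at log2 9.60, 10.10 and 9.59 at passages 13, 14 and 18. Of the 7, 4 were highest at passage 14. Cytochrome c (Cycs) was not among them, at 12.37, 12.36 and 12.08, nor was the ATP synthase inhibitor Atpif1, at 12.28, 11.93 and 12.42. All 12 tricarboxylic acid cycle genes were detected, 11 of them higher at passage 14 than at passage 13, with a median of -0.32 log2 for passage 18 minus 14. Of 32 assembly factors outside the rule, 28 were detected, with a median of -0.09. The trend fit called none of the genes in these lists.

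Of 17 regulators of mitochondrial genes, 13 were detected. NRF1 (Nrf1), which binds promoters of many respiratory genes, stood at log2 7.47, 7.90 and 7.29. Tfam, which activates transcription of mitochondrial DNA, stood at 8.76, 8.93 and 8.93. The coactivator Ppargc1a was above the floor on 1 array (3.91, 5.81 and 4.61), and Ppargc1b, Esrrb and Esrrg on none. Among 13 hypoxia-inducible genes, 10 were detected, with median differences of 0.07, -0.48 and -0.40 log2 for passages 14 minus 13, 18 minus 13 and 18 minus 14. Of the 10, 8 were lower and 2 higher at passage 18 than at passage 13. Egln1 was among the higher, at log2 9.65, 9.31 and 10.31 at passages 13, 14 and 18. The detected genes included Pgk1 (13.25, 13.29 and 12.78) and Ldha (12.22, 12.38 and 11.73). The targets Vegfa and Car9 were below the floor throughout, as were Cox4i2 and Ndufa4l2, and Ankrd37 passed it on 1 array. A response to low oxygen was not tested.

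The members' promoters held the NRF1 motif more often than promoters at large. The motif GCGCANGCG, searched on both strands in the 300-base windows, was found in 23 of 83 member promoters (27.7%). The share was 6.25% of all 32851 promoters in the table and 8.58% of 21262 promoters of protein-coding genes. With T at the sixth letter it was found in 9 (10.8%), against 1.75% and 2.35%. These windows are from RefSeq (GRCm38.p6), 41 bases 5′ to 3′ on the gene's strand with the motif in capitals, and show 1 example each where the motif reads on that strand.
Atp5g2 (chr15:102671065-102671105, minus strand): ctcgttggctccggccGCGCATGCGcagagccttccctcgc
Atp5k (chr5:108434425-108434465, minus strand): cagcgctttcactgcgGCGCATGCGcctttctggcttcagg
Cox6a1 (chr5:115349096-115349136, minus strand): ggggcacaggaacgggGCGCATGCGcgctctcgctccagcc
Ndufaf4 (chr4:24897954-24897994, plus strand): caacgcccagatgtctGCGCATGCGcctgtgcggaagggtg
In these windows the first base of the motif lies 42 (Atp5g2), 50 (Atp5k), 162 (Cox6a1) and 113 bases (Ndufaf4) before the start site. By role, the motif was found in 7 of 33 promoters of complex I, 2 of 3 of complex II, 2 of 5 of complex III, 1 of 13 of complex IV, 7 of 18 of complex V and 4 of 11 of the assembly factors. In complex IV, Cox6a1 was the gene with the motif. The motif overlaps CG dinucleotides, in which the members' promoters are rich, and a match is a description of letters, not a binding site.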

How the data were processed

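RNA of 3 cultures was amplified in 1 round of isothermal amplification and hybridised to a 1-colour Affymetrix-type array, per the labels' protocols. The deposited values are linear-scale intensities, 1 for each probe set on each array. MAS5 is named, with no role or version, per the submitters' processing notes, and other steps: not given in the sources used here. Median intensities were 25.7, 26.0 and 26.3 and 95th percentiles 1367, 1363 and 1365, so nothing was normalized again. Precision is limited by the 3 arrays.

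Of 45101 probe sets, 34958 name 1 gene in the platform annotation, 932 name several and 9211 are unnamed here. Symbols were matched by Entrez identifier to RefSeq (GRCm38.p6), which covered 34754 probe sets and all 94 members. Where a gene had several probe sets, the one of highest mean log2 intensity stood for it. Pairwise differences are log2 values with no test. The trend with passage was fitted with limma (lmFit, eBayes with an intensity trend) over all genes above the mean floor, with Benjamini-Hochberg adjustment at 0.05. It was run on simulated data with slopes larger than that of any member. That check therefore does not cover slopes of the size seen here. Members and lists were chosen with earlier results of these data known.

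Named with values on every array were the restricted or alternative isoforms and their partners, the c-ring genes, complex II, and in each complex the brightest gene and those with the 2 widest ranges. The rule also took the 2 assembly factors with the widest range and any detected gene past 2-fold. Other members named were chosen after their values were seen. The promoter table of RefSeq held 83 windows for 78 members, and no gene coordinates were otherwise used. Python 3.11.15, numpy 2.4.6, pandas 2.3.3, scipy 1.17.1, R 4.3.3 and limma 3.58.1 were used. The alternatives tried were other probe-set rules, floors, normalizations, a log offset, no filter, a stricter fold and leaving out each array.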

Additional observations from a re-analysis of the deposited data

How the results depend on the processing

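With 1 culture per passage, passage and culture cannot be told apart. Over the alternatives run on all arrays, 67 to 90 of 94 members were detected, against 83, and over those leaving out an array 83 to 85. The setting without probe sets whose names end in _x_at, _s_at or _a_at leaves some members with no probe set, Ndufs1, Sdhc and Uqcrc1 among them. Such members have no value there, so a lower count in that setting is not a loss of detection alone. Of the values named for single genes, 395 stayed within the spread and 52 moved by more. No paired analysis was possible because there is 1 group.

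Without the probe sets of these name endings, 5 genes of complex III were detected, while Uqcrc1 and Uqcrc2 had no probe set left. The floor was set anew from the remaining probe sets. Complex IV medians then became 0.12, -0.20 and -0.33 log2 for passages 14 minus 13, 18 minus 13 and 18 minus 14. The other medians of passage 18 minus 14 became -0.26 over all members, -0.30 in complex I, -0.67 in complex II and -0.029 in complex III. Members higher by 1.5-fold or more then numbered 2 at passage 14 against 13, 2 at 18 against 13 and 1 at 18 against 14, and 14 were higher by any amount at 18 than at 14. The median SD of complex II became 0.342.

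With no filter, complex IV gave 0.051 for passage 14 minus 13 and -0.11 for 18 minus 14, and 3 members were higher by 1.5-fold or more at passage 14 than at 13. With the floor at the 90th percentile these were -0.11 for 18 minus 14 and 2 members. With the floor at the highest other-tissue gene, the assembly factors gave 0.034 for passage 14 minus 13 and 0 members were lower by 1.5-fold or more at passage 14 than at 13. With the median of probe sets, complex V gave -0.12 for 18 minus 13 and -0.26 for 18 minus 14, and 2 members were higher by 1.5-fold or more at passage 14 than at 13. At 2-fold, 0 were higher at passage 14 than at 13, 0 lower at 18 than at 13 and 0 lower at 18 than at 14. Leaving out each array in turn, the median SD ranged from 0.0632 to 0.232 in complex IV (lowest without passage 18) and from 0.152 to 0.271 in the assembly factors (lowest without passage 14). The stricter NRF1 motif gave 10.8%. The cause of these shifts was not tested.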
